A study of Mus musculus with 6 samples.

Results

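The Schlafen genes of the mouse were followed here in hypoxic heart cells that received β-sitosterol (β-SITO), a plant sterol, or its vehicle. The family was defined by name, as the 7 rows of the deposited table of 57010 genes that are called Slfn1, Slfn2, Slfn3, Slfn4, Slfn5, Slfn8 and Slfn9. The cells were primary neonatal mouse cardiomyocytes (NMCMs), which the study prepared from newborn C57BL/6 hearts by letting the fibroblasts settle first, so other heart cells can remain among them. All 6 libraries came from cells under hypoxia (HO), and 3 belong to the HO + Vehicle group (V1, V2 and V3) and 3 to the HO + β-SITO group (T4, T5 and T6). Neither the dose of β-SITO nor the length of the hypoxia of these libraries is given in the sources used here, and no normoxic library was analysed here. Nothing says that the 3 libraries of a group came from separate cultures, so the p-values measure the spread between these libraries, which may be technical. The library names of the HO + β-SITO group carry a letter that those of the HO + Vehicle group lack, and a separate preparation cannot be told apart from the treatment.

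Schlafen genes, named after the German word for sleeping because the first members slowed the growth of T cells, form a family that has been duplicated repeatedly in rodents. All members carry a core region related to an RNA-cutting fold, and several Schlafen proteins bind or cut transfer RNA. The short forms (Slfn1 and Slfn2) consist mainly of this core, the intermediate forms (Slfn3 and Slfn4) carry an added linker region, and the long forms (Slfn5, Slfn8 and Slfn9) also carry a helicase-like end. The genes are best known from lymphocytes and macrophages, where type I interferon raises the transcripts of several of them. The coding length followed these classes. It was 1011 bases for Slfn1 and 1134 for Slfn2, 1920 for Slfn3 and 1806 for Slfn4, and 2652 for Slfn5 and 2730 for both Slfn8 and Slfn9 (longest coding transcript in GENCODE vM21).

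The 7 genes lie together on chromosome 11, within 264 kb from 82842175 to 83105980 in the coordinates of the table, for which the labels name the build GRCm39. Slfn5 comes first (82842175 to 82855666, plus strand), followed by Slfn9 (82869216 to 82882656) and Slfn8 (82892984 to 82911636), both on the minus strand. Slfn2 (82955938 to 82961504), Slfn1 (83007675 to 83013496), Slfn4 (83066012 to 83081042) and Slfn3 (83082156 to 83105980) follow on the plus strand.

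The stretches just before the transcription starts are shown because those of the long forms hold matches to one motif with free positions, and those of the short and intermediate forms share one run of letters. Each stretch is the 175 bases before the RefSeq start, 5′ to 3′ on the gene's own strand, from the older build GRCm38.p6, so these positions cannot be compared with those above. Capitals mark ACTTCCTGG in Slfn1, Slfn2, Slfn3 and Slfn4, and GAAANNGAAA, read on either strand, in Slfn5, Slfn8 and Slfn9.
Slfn1, chr11:83116645-83116819, plus strand: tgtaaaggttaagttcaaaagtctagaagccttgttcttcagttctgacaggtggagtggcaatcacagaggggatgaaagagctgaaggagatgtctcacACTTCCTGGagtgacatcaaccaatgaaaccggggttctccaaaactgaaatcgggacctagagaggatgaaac
Slfn2, chr11:83064937-83065111, plus strand: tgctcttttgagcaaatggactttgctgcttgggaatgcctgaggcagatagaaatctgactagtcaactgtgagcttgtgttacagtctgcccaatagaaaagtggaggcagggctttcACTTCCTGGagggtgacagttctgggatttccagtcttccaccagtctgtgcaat
Slfn3, chr11:83191155-83191329, plus strand: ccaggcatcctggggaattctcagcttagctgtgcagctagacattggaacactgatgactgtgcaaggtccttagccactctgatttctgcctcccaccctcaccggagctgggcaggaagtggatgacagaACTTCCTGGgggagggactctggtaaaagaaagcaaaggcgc
Slfn4, chr11:83175011-83175185, plus strand: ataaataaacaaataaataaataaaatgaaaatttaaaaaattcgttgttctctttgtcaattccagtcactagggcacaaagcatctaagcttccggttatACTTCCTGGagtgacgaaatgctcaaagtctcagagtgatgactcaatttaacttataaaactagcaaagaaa
Slfn5, chr11:82951927-82952101, plus strand: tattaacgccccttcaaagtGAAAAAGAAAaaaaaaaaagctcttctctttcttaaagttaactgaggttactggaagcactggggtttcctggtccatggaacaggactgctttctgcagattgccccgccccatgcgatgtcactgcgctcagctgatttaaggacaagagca
Slfn8, chr11:83020811-83020985, minus strand: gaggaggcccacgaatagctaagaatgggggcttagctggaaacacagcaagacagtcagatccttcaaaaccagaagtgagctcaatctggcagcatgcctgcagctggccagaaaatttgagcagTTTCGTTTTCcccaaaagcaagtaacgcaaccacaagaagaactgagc
Slfn9, chr11:82991831-82992005, minus strand: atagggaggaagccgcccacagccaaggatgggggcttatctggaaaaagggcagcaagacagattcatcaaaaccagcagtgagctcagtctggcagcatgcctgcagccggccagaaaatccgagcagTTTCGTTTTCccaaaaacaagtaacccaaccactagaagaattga

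GAAANNGAAA is the core of the interferon-stimulated response element, a sequence to which IRF proteins bind. Promoter windows of 300 bases, from 250 before to 50 after the RefSeq start, were searched on both strands. The core was present in the windows of 3 of the 7 genes, all of them long forms, against 3.43% of 32817 mouse windows of this length. In Slfn8 and Slfn9 it read TTTCGTTTTC on the gene's strand and began 48 and 45 bases before the start, and in Slfn5 it read GAAAAAGAAA, began 155 bases before the start and ran into a row of A. RefSeq gives Slfn8 a second start, whose window held the same match. The windows of Slfn8 and Slfn9 were near copies, with 80.0% identical bases in an alignment of the 250 bases before the start, whereas every other pair of members had between 44.0% and 50.9%. Their longest shared run was TCTGGCAGCATGCCTGCAGC, of 20 bases. The longest run that Slfn5 shared with both was CCTTCAA, of 7 bases, found in 4.1% of all windows.

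The interferon gamma-activated sequence (GAS), TTCNNNGAA, was in none of the 7 windows (8.29% of all windows hold it), and the κB consensus was in those of Slfn1 and Slfn9 (8.46% of all windows). The short and intermediate forms, which had no GAAANNGAAA, had another run of letters in common. ACTTCCTGG, which holds the core of the motif of ETS factors, began 74 bases before the start in Slfn1, 55 in Slfn2, 42 in Slfn3 and 73 in Slfn4, and is found in 0.844% of all windows. In Slfn1, Slfn2 and Slfn4 it ran on as ACTTCCTGGAG, found in 0.0731%. This run was found by comparing the windows with each other and was not chosen beforehand. The end of the Slfn1 window was not found as an unbroken run in a GENCODE vM21 transcript of this gene. The start positions themselves were not compared, so the distances in Slfn1 may depend on the annotation. A match is a run of letters, and no binding was measured in these libraries.

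All 7 Schlafen genes fell with β-SITO. By the ratio of normalized counts pooled over each group, the decreases went from 3.07-fold for Slfn3 (95% counting interval 2.54 to 3.73) to 607-fold for Slfn1 (168 to 5020), where the latter rests on 2 counts in the HO + β-SITO group. Every HO + β-SITO library was below every HO + Vehicle library for each of the 7. A gene was called when its adjusted p was under 0.05 and its change more than 2-fold (edgeR's quasi-likelihood test on 14799 genes, Benjamini-Hochberg adjustment). Of all tested genes, 10.1% were called lower with β-SITO, 12.8% higher and 22.8% in either direction. Without the fold cutoff 33.8% were lower, and in 35.8% of the tested genes every HO + β-SITO library was below every HO + Vehicle library. The members' median log2 fold change was -4.46, and that of all tested genes -0.01. The genes passed the filter on low counts without exception, Slfn1 and Slfn4 through the HO + Vehicle libraries alone. The libraries held 16694734 to 18460522 counts, and values are given as CPM, which are counts scaled to the library total, after TMM normalization. In RNA from a mixed culture, fewer cells of a type and less RNA per cell cannot be told apart.

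**Figure D1:**
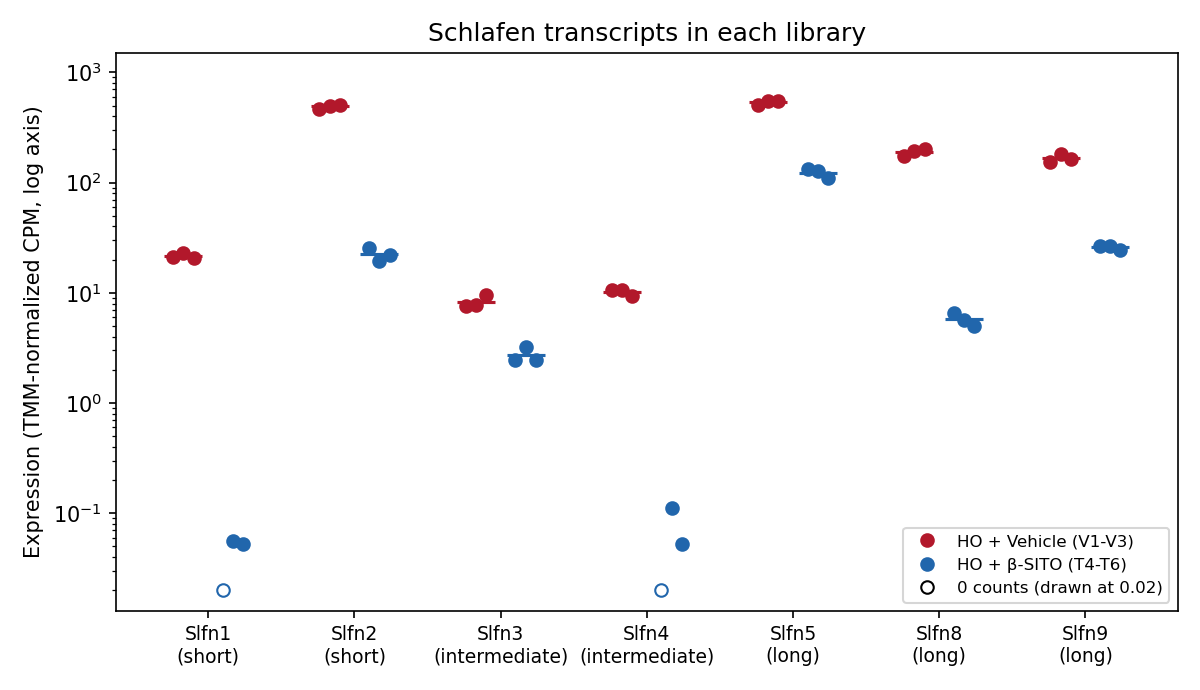
Expression of the 7 Schlafen genes in each library, in TMM-normalized CPM on a log axis, with 1 point per library a line at the group mean where no library is at 0, and open circles at the foot for libraries with 0 counts. The HO + β-SITO points lie below the HO + Vehicle points for every gene, and the gap is narrowest for Slfn3 and widest for Slfn1.

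Slfn2, which keeps T cells and monocytes quiescent and shields transfer RNA from cleavage under oxidative stress, had 470 CPM in V1, 497 in V2 and 509 in V3. It had 25.5 CPM in T4, 19.4 in T5 and 22.0 in T6, so the highest HO + β-SITO library stayed far below the lowest HO + Vehicle library. The means were 492 ± 19.8 and 22.3 ± 3.03 CPM (SD, n = 3). This is 22.0-fold lower, with a log2 fold change of -4.46 ± 0.0878 (SE; adjusted p = 1.03e-15).

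Slfn1, a short form that stops the growth of T cells when it is overexpressed, had 334, 366 and 331 counts in V1, V2 and V3, or 21.1, 22.9 and 20.5 CPM. T4 held 0 counts and T5 and T6 held 1 count each. Slfn1 was thus close to undetected in the HO + β-SITO group. From 1031 counts in the HO + Vehicle group and 2 in the HO + β-SITO group, it was 607-fold lower, with a 95% interval from 168 to 5020 that covers counting error only (exact binomial). The fitted log2 fold change was -8.98 ± 0.257 (SE; adjusted p = 8.78e-14), and its size depends on the small count that the fit adds to 0.

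The intermediate forms lie next to each other. Slfn4, a gene of myeloid cells that interferon raises in macrophages, had 170, 170 and 151 counts in V1, V2 and V3, or 10.7, 10.7 and 9.36 CPM. T4, T5 and T6 held 0, 2 and 1 counts. From 491 counts against 3, Slfn4 was 193-fold lower (95% counting interval 65.6 to 938), and its fitted log2 fold change was -7.41 ± 0.323 (SE; adjusted p = 1.54e-11).

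Slfn3, which has been linked to the differentiation of intestinal cells, is the neighbour of Slfn4. It had 7.52, 7.71 and 9.55 CPM in V1, V2 and V3. Unlike Slfn4 it was still well measured with β-SITO, at 2.47, 3.20 and 2.45 CPM in T4, T5 and T6, from 48, 57 and 47 counts. Its log2 fold change of -1.61 ± 0.165 (SE; adjusted p = 4.51e-07) was the smallest decrease of the family.

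The long form Slfn5 is a nuclear protein that restrains transcription of interferon-induced genes in human cells. It had 511, 547 and 549 CPM in V1, V2 and V3 and 132, 128 and 110 CPM in T4, T5 and T6. The means of 536 ± 21.1 and 123 ± 11.5 CPM (SD, n = 3) gave a log2 fold change of -2.12 ± 0.0720 (SE; adjusted p = 6.70e-13), or 4.35-fold lower.

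Slfn8 and Slfn9 are long forms that sit side by side and have the near-copy promoters shown above. Slfn8 had 174, 193 and 200 CPM in V1, V2 and V3, and 6.58, 5.68 and 4.95 CPM in T4, T5 and T6. Slfn9 had 153, 181 and 165 CPM in V1, V2 and V3, and 26.7, 26.5 and 24.3 CPM in T4, T5 and T6. Neither gene's groups overlapped. The log2 fold change was -5.04 ± 0.0962 for Slfn8 (SE; adjusted p = 7.63e-16) and -2.69 ± 0.0749 for Slfn9 (SE; adjusted p = 6.25e-14), which are decreases of 32.9-fold and 6.45-fold.

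**Figure D2:**
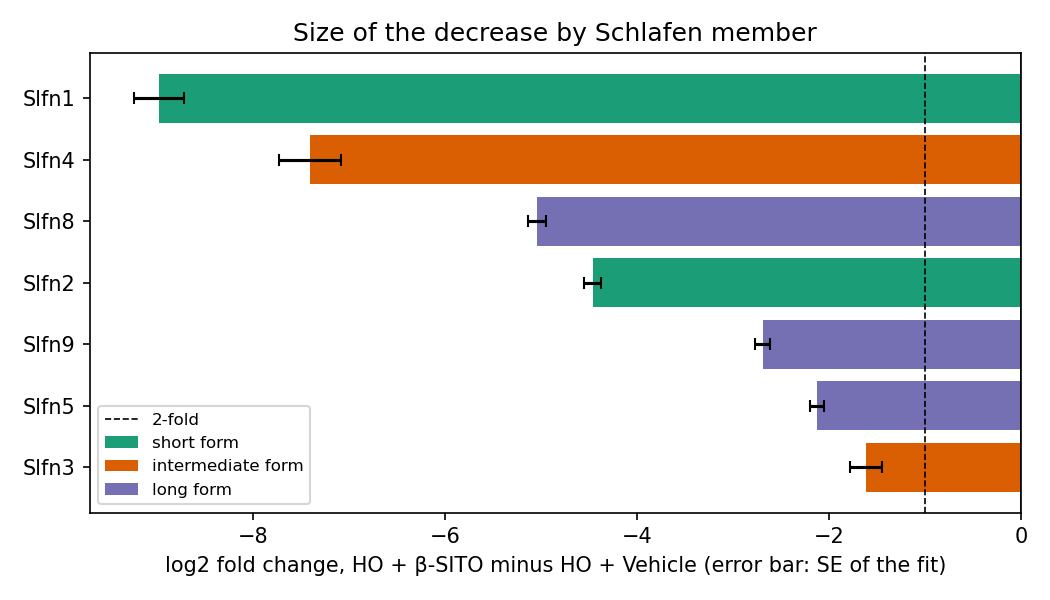
Log2 fold change of each Schlafen gene, HO + β-SITO minus HO + Vehicle, with the SE of the fit as error bar, coloured by form, and a dashed line at a 2-fold decrease. The bars run from -8.98 for Slfn1 to -1.61 for Slfn3, and each form has members at different places in this order.

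Ordered from the largest decrease among all 14799 tested genes, Slfn1 stood at place 32, Slfn4 at 69, Slfn8 at 203, Slfn2 at 251, Slfn9 at 515, Slfn5 at 676 and Slfn3 at 942. The places of Slfn1 and Slfn4 are inexact, since they rest on 2 and 3 counts with β-SITO and on the small count that the fit adds to 0. Summed over both genes, the short forms went from 514 ± 19.9 to 22.4 ± 3.0 CPM (SD, n = 3), 23.0-fold lower. The sum of the intermediate forms was 6.70-fold lower (18.5 ± 0.347 against 2.76 ± 0.482 CPM) and that of the long forms 5.76-fold lower (891 ± 45.7 against 155 ± 13.5 CPM). The sum of the short forms is nearly all Slfn2. All 7 genes together went from 1420 ± 65.2 to 180 ± 14.7 CPM, 7.91-fold lower (exact permutation test on the log2 sums, two-sided, p = 0.1, the smallest that 3 libraries against 3 allow).

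Ratios between members show whether they moved by one common amount. For the 5 genes with at least 10 counts in every library, the log2 ratio of the counts of 2 members within a library does not depend on the normalization. In all 10 pairs of these genes, every ratio of one group was apart from every ratio of the other. The pairs share members and are not independent. Of single tested genes, 70.5% had groups that did not overlap, and how often other gene pairs are apart was not tested. The two-sided exact permutation test gave p = 0.1 for each pair, the smallest it can give here, and an adjusted p = 0.1 over the 10 pairs, so no pair could pass 0.05. The log2 ratio of Slfn8 to Slfn9 was 0.18 ± 0.09 under vehicle and -2.18 ± 0.14 with β-SITO (SD, n = 3), which is a shift of -2.36. Slfn3 to Slfn8 had the widest shift, from -4.52 ± 0.13 to -1.09 ± 0.30. The narrowest was that of Slfn3 to Slfn5, from -6.03 ± 0.16 to -5.52 ± 0.21, and those of Slfn5 to Slfn9 (0.56) and Slfn2 to Slfn8 (0.58) were of like size.

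Levels of different genes were compared per kb of exon. Under vehicle the order was Slfn2 with 296 ± 11.9 CPM per kb, Slfn5 with 84.7 ± 3.34, Slfn8 with 46.2 ± 3.35, Slfn9 with 27.9 ± 2.31, Slfn1 with 11.5 ± 0.680, Slfn4 with 2.59 ± 0.195 and Slfn3 with 2.42 ± 0.328 (SD, n = 3). Slfn4 and Slfn3 were the only neighbours in this order whose libraries overlapped. With β-SITO the order was Slfn5 with 19.5 ± 1.81 CPM per kb, Slfn2 with 13.4 ± 1.82, Slfn9 with 4.33 ± 0.220, Slfn8 with 1.40 ± 0.200 and Slfn3 with 0.793 ± 0.127, and the libraries of Slfn1 and Slfn4 overlapped near 0.

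The shares of the members in the family sum were apart in the same way. Slfn2 held 62.8% ± 0.449 of the family sum per kb under vehicle and 34.0% ± 3.29 with β-SITO (SD, n = 3). Slfn5 held 18.0% ± 0.0860 and 49.4% ± 2.49. The share of Slfn9 was higher with β-SITO (5.92% ± 0.342 against 11% ± 0.533) and that of Slfn8 was lower (9.80% ± 0.302 against 3.54% ± 0.228). These shares are descriptions of the same counts and carry no further test.

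**Figure D3:**
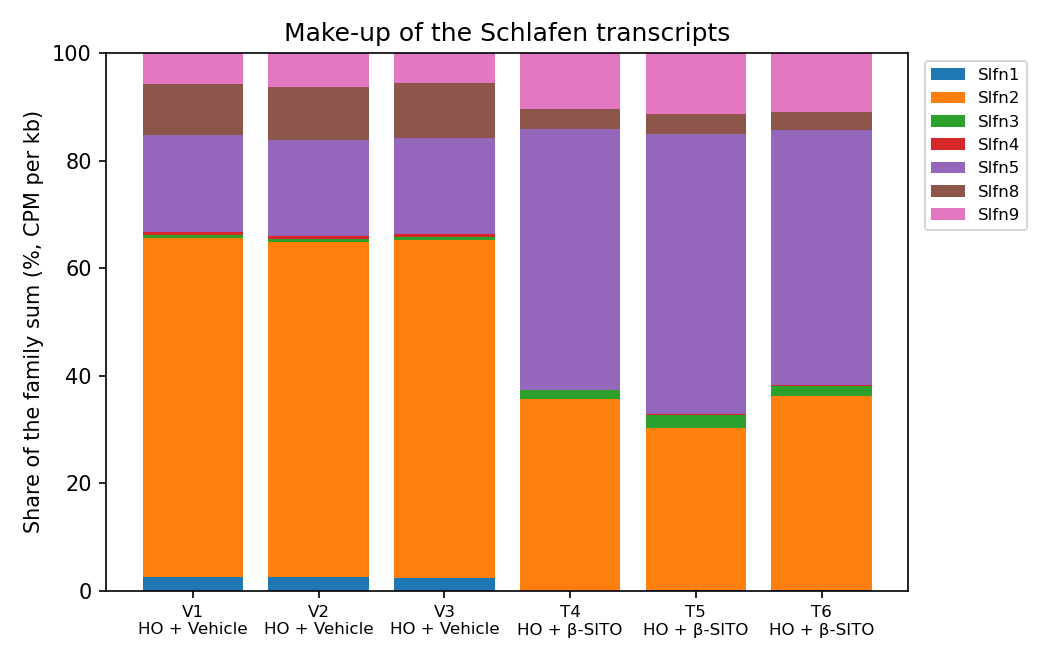
Share of each Schlafen gene in the family sum of CPM per kb of exon, in percent, for each library. Slfn2 takes 62.3% to 63.1% of the bar in V1 to V3 and 30.2% to 36.1% in T4 to T6, where Slfn5 takes 47.5% to 52.2%.

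Replicates of the more abundant members lay close together under vehicle, and those of Slfn2, Slfn5 and Slfn8 lay wider apart with β-SITO. The coefficient of variation of Slfn2 was 4.03% in the HO + Vehicle group and 13.6% in the HO + β-SITO group, where counting error alone would give 1.13% and 4.87%. For Slfn5 it was 3.94% and 9.31%, with counting errors of 1.08% and 2.08%. Slfn8 varied by 7.24% and 14.3% (counting errors 1.82% and 9.62%) and Slfn9 by 8.28% and 5.08% (1.94% and 4.54%). Slfn4 varied by 7.55% under vehicle, about its counting error of 7.82%, and the variation of Slfn3 with β-SITO (16.0%) was also near its counting error (14.0%). T4 had the highest values of the HO + β-SITO group for Slfn2, Slfn5, Slfn8 and Slfn9, and without T4 the log2 fold changes of these genes were -4.57, -2.17, -5.15 and -2.71.

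Part of the sequence of some members also occurs in other genes, so their counts are less certain. Of all windows of 75 bases in its transcripts (GENCODE vM21), Slfn8 shared 6.99%, Slfn3 6.78%, Slfn9 5.90%, Slfn4 3.12%, Slfn2 1.70%, Slfn5 1.53% and Slfn1 none. The main partner was Slfn10-ps for Slfn8 and Slfn9, and Gm11427 for Slfn3 and Slfn4. With windows of 150 bases, only Slfn3 (1.29%) and Slfn9 (1.46%) shared any. How reads that match several genes were counted is not given in the sources used here. Nor is it stated whether the strand was used, and 2 members have an antisense partner. Slfn5os, antisense to Slfn5, had at most 5 counts in any library, and Gm20234, antisense to Slfn2, had 13, 11 and 10 counts in V1, V2 and V3 and 0, 1 and 2 in T4, T5 and T6.

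The table holds 5 further rows whose names begin with Slfn. Slfn10-ps, a pseudogene of the cluster, has 2 rows, 1 with 0 counts in every library and 1 annotated as a long noncoding RNA. The latter had 67, 68 and 75 counts in V1, V2 and V3 and 9, 8 and 14 in T4, T5 and T6. It fell by 2.98 on the log2 scale (SE 0.243; adjusted p = 3.18e-08), from a mean of 4.38 ± 0.232 CPM to 0.547 ± 0.158 (SD, n = 3), with the reservation that it shares sequence with Slfn8 and Slfn9. Slfn14, a long form of platelet and red cell precursors, Slfn5os and Slfnl1 had too few counts to be tested, with at most 1, 5 and 2 counts in a library.

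Other genes of the same stretch of chromosome 11 were examined to see where along it the decrease was found. Among all tested genes, 10.1% were called lower and 12.8% higher with β-SITO. Within 1 Mb of the cluster, 35 genes outside the family were tested, of which 15 were lower and 2 higher. Inside the cluster 2 such genes were tested, 1190001M18Rik and Gm11425. Both were lower, with log2 fold changes of -3.06 (adjusted p = 4.56e-05) and -3.40 (adjusted p = 1.54e-07). Both were scarce. 1190001M18Rik had 17, 30 and 19 counts in V1, V2 and V3 and 2, 1 and 6 in T4, T5 and T6. Gm11425, which ends at 82918823, just before the Slfn10-ps row that begins at 82918956, had 35, 52 and 51 counts against 5, 5 and 5. The nearest tested gene before Slfn5 is Unc45b, a myosin chaperone, which had 36.9 ± 6.04 CPM under vehicle and 30.0 ± 5.11 CPM with β-SITO (SD, n = 3), with overlapping libraries and a change too small to be called (log2 fold change -0.30, adjusted p = 0.0415). The nearest after Slfn3 is AI662270, with 2.96 ± 0.997 against 4.07 ± 0.172 CPM and no call either (log2 fold change 0.46, adjusted p = 0.0687).

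Farther out, 13 of 33 tested genes were lower, and 8 of these 13 were CC chemokine genes, which flank the Schlafen cluster at some distance on both sides. Ccl5, a chemokine that attracts T cells, had a log2 fold change of -12.16, Heatr9 was at 0 counts in every HO + β-SITO library against 181 to 210 counts under vehicle, and Ccl2, which attracts monocytes, had -7.15. Ccl6 was the 1 chemokine gene of the 9 tested that was not lower, with a log2 fold change of 0.91. Of the 24 tested genes outside the cluster that encode no chemokine, 5 were lower and 2 higher, and their median log2 fold change was -0.28. The shares of all tested genes were 10.1% lower and 12.8% higher. The 2 higher genes were Rasl10b (1.05) and Dusp14 (1.55), and only 1 gene was called higher without V3 or without T6.

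**Figure D4:**
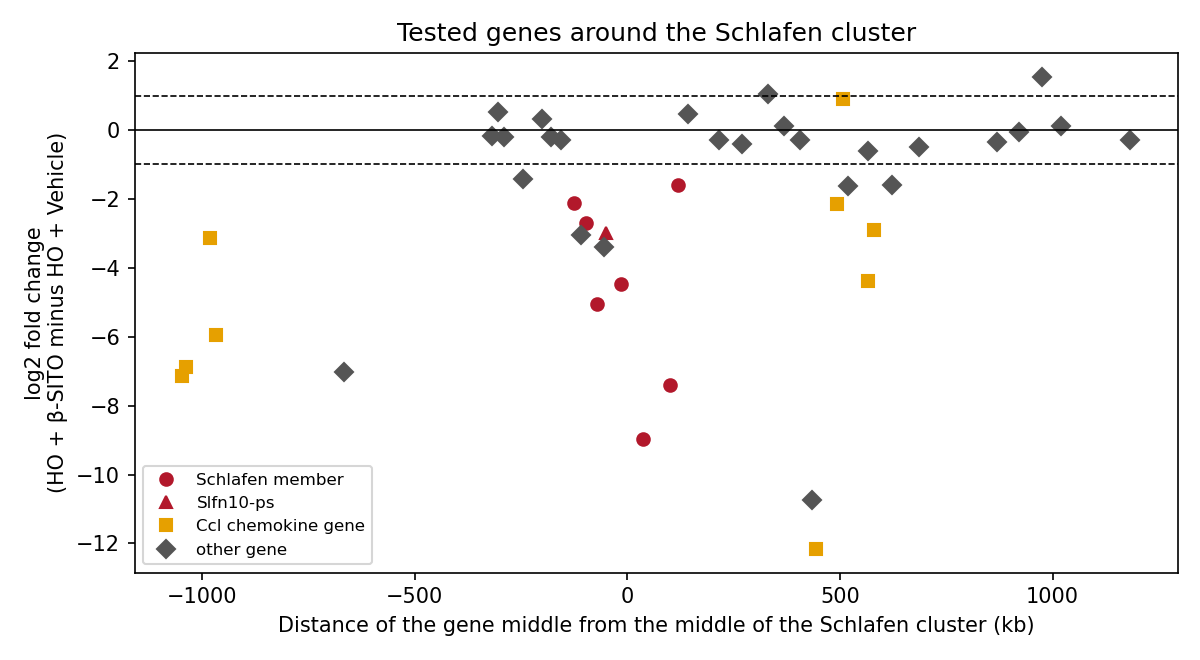
Log2 fold change of the tested genes within 1 Mb of the Schlafen cluster against the distance in kb of each gene's middle from the middle of the cluster, with dashed lines at 2-fold. The Schlafen genes, Slfn10-ps and the 2 other tested genes among them lie below the lower dashed line, the nearest tested gene on each side lies between the dashed lines, and 8 of 9 Ccl genes lie below the line.

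Interferon signalling genes were read beside the family, since interferon controls several Schlafen genes. Of 20 listed genes 18 were tested, and 10 were lower and none higher, beside 10.1% lower and 12.8% higher among all tested genes. The list's median log2 fold change was -1.66. Without the fold cutoff 17 were lower and 1, Irf3, was higher, at a log2 fold change of 0.37. Usp18, which removes the ubiquitin-like ISG15 and damps the type I receptor, fell from 462 ± 16.6 to 3.91 ± 1.31 CPM, and Irf7, which amplifies interferon transcription, from 1226 ± 75.7 to 10.7 ± 1.49 CPM (SD, n = 3). Stat2 and Irf9, which encode transcription factors of type I interferon signalling, were both called lower, with log2 fold changes of -3.43 and -1.67. The only ligand genes on this list were Ifnb1 and Ifna4, and other interferon genes were not read here. Ifnb1 had 1 count in V2 and 0 in the other 5 libraries, and Ifna4 had 0 in all 6.

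Genes that cut or protect transfer RNA, the molecule on which Schlafen proteins act, were read as well. Of 12 tested genes on this list 1 was lower and none higher, beside 10.1% lower and 12.8% higher among all tested genes, and the median log2 fold change was -0.24. Without the fold cutoff 6 were lower and 3 higher. The lower gene, Rnaset2b (1.32 ± 0.296 against 0.283 ± 0.0241 CPM), is scarce and has a close relative, Rnaset2a, elsewhere on chromosome 17. How much sequence they share was not measured here, so the counts of Rnaset2b are uncertain. Without V1, T4, T5 or T6, 2 genes of this list were called lower. Ang, which encodes the transfer RNA nuclease angiogenin, had a log2 fold change of 0.58 (adjusted p = 0.00286) and Nsun2, which methylates transfer RNA, one of -0.75 (adjusted p = 2.99e-08), and neither reached 2-fold.

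On a list of 14 cell cycle genes tied to growth arrest, 1 was lower and 3 were higher. Among all tested genes 10.1% were lower and 12.8% higher. Without the fold cutoff 6 genes of the list were lower and 6 higher. Cdkn1a, an inhibitor of cyclin-dependent kinases, fell from 413 ± 11.5 to 139 ± 2.94 CPM (log2 fold change -1.57), while Cdkn1c, another such inhibitor, rose from 2.03 ± 0.382 to 12.6 ± 1.66 CPM (2.63). Ccnd1, which encodes the cyclin that the first Schlafen genes were reported to repress, rose from 40.6 ± 2.26 to 91.2 ± 9.44 CPM (SD, n = 3; log2 fold change 1.17, adjusted p = 3.34e-09). The proliferation marker Mki67 rose as well (1.16). The other D-type cyclin genes went the other way without reaching 2-fold. The log2 fold change was -0.61 for Ccnd2, from 470 ± 25.7 to 307 ± 4.99 CPM, and -0.22 for Ccnd3. Whether the Schlafen values bear on any of these genes was not tested. The list's median log2 fold change was -0.01.

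Since Schlafen genes are known from immune cells, markers of the cells that such a culture could hold were read in the same libraries. Cardiomyocyte markers were present in all libraries, 4 of 12 higher and none lower. Their summed level was 6390 to 7310 CPM under vehicle and 5730 to 9810 CPM with β-SITO. Fibroblast markers were present too (30000 to 31300 and 45000 to 46100 CPM), 1 of 9 higher and none lower. Col1a1, Col1a2 and Col3a1 made up most of the fibroblast sum. Without the fold cutoff 6 fibroblast markers were higher and 2 lower, Dcn (log2 fold change -0.52) and Postn (-0.22). Macrophage markers were 8 of 12 higher and 1, Fcgr1, lower. Their summed levels were 1300 to 1420 CPM under vehicle and 2840 to 3490 CPM with β-SITO. Lyz2 was the largest part of this sum (647 ± 59.7 against 1410 ± 170 CPM), and Mrc1 rose from 11.8 ± 1.06 to 325 ± 51.5 CPM. Adgre1, Ptprc and Itgam were not called (log2 fold change -0.06, -0.03 and 0.47). Endothelial markers were 7 of 7 higher (202 to 232 against 812 to 845 CPM). The shares of all tested genes were 10.1% lower and 12.8% higher. The T cell genes Cd3d, Cd3e and Cd3g and the neutrophil gene Ly6g had 0 counts in all 6 libraries. Thy1, on the T and NK cell list, was not scarce, at 95.5 ± 5.59 CPM under vehicle and 177 ± 7.81 CPM with β-SITO (log2 fold change 0.89, not called). Some other genes of these lists were present at low counts. The T cell receptor gene Trac had 19, 11 and 12 counts in V1, V2 and V3 and 32, 31 and 31 in T4, T5 and T6 (log2 fold change 0.92, not called), and the neutrophil genes S100a8 and S100a9 had 3 to 11 and 4 to 18 counts in a library. Of the lymphocyte lists 1 of 4 tested T and NK cell markers was lower (Lck) and 1 higher (Cd4), and the single tested B cell marker, Pax5, was lower. The single tested neutrophil marker, Csf3r, was lower as well (14.6 ± 0.606 against 3.42 ± 0.581 CPM). What part these shifts have in the Schlafen values was not tested.

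For each member with a mean of at least 100 counts, the tested genes with the most similar pattern were sought by the root mean square difference of log2 CPM, centred per gene, over the 6 libraries. Slfn2 was closest to Slc15a3 (0.0631), Trim30d (0.0732) and Rtp4 (0.0886), and Slfn8 to Tlr2 (0.0877), Gbp7 (0.0888) and Trim30a (0.0932). Slfn9 was closest to Ifitm3 (0.0587), H2-D1 (0.0639) and H2-M3 (0.0641). The nearest to Slfn5 were Adamts7 (0.0507), Ccl9 (0.0592) and Insig1 (0.0601). For Slfn1 they were Coch (0.164), Gm6545 (0.212) and Gbp6 (0.240), at wider differences that include the counting error of its few reads. A prior count of 2 was added before taking log2 CPM, so the neighbours of Slfn1 depend on it. No member was among the 3 nearest genes of another, and the closest members were Slfn5 and Slfn9 (0.286). With 2 groups of 3 libraries, this measure mainly ranks genes by the size of their difference between the groups.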

How the data were processed

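RNA-seq libraries of hypoxic NMCMs, 3 per group, were analysed. The authors deposited raw read counts per gene for all libraries, without normalization. The submitters' processing notes name FastQC, HISAT2, featureCounts and the build GRCm39, and versions and counting options are not given in the sources used here. The labels and the paper name different library kits. From the deposited counts, edgeR 4.0.16 (R 4.3.3) was run with filterByExpr, TMM normalization and the quasi-likelihood test with Benjamini-Hochberg adjustment over 14799 genes, with the group as the only term. SEs are the log2 fold change divided by the square root of F. A call needed adjusted p below 0.05 and a change above 2-fold. Exon and coding lengths and transcript sequences came from GENCODE vM21 by gene identifier, and all 7 members matched. Promoter windows came from RefSeq (GRCm38.p6), and all 7 members matched. Motifs were searched on both strands. Aligned windows used Biopython 1.88. Alternatives were DESeq2 1.42.0, limma-voom (limma 3.58.1), glmTreat, no fold cutoff, 3 normalizations, 2 filters and leaving out each library. The genes to name were set by rule: all members, other Slfn rows, the nearest tested gene on each side, the 3 called genes of each list with the largest change, Stat2, Irf9, Irf7, Ifnb1 and the 3 most similar genes per member. Some genes that the rule or the marker lists hold are not reported here. Other names were chosen after their values were seen. The members and lists were chosen with earlier results of these data known. The test was checked on simulated counts.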

Additional observations from a re-analysis of the deposited data

How the results depend on the processing

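All 7 Schlafen genes were called lower under each of the 9 alternatives and whichever library was left out. Among all tested genes, 1177 to 5007 were called lower over the alternatives and 1476 to 1565 with each library left out. Slfn1 and Slfn4 passed the main low-count filter through the HO + Vehicle libraries alone. Library size only and upper quartile normalization moved the median log2 fold change of all tested genes from -0.01 to 0.14, and the log2 fold change of Slfn5 was -1.97 and -1.98 with them. Slfn3 ranged from -1.61 to -1.46 over the alternatives and from -1.72 to -1.47 with each library left out, and Slfn4 from -8.25 to -6.86 with each library left out. The log2 difference of the family sum was -2.98 to -2.84 under other normalizations and -3.04 to -2.91 with each library left out. Without the fold cutoff, 23 genes around the cluster were lower and 4 higher, 17 interferon signalling genes were lower and 1 higher, 6 transfer RNA genes were lower and 3 higher, and 6 growth arrest genes were lower and 6 higher. The higher genes around the cluster numbered 0 with glmTreat and 1 with a minimum of 1 CPM, and 1 to 3 with each library left out. Lower genes of the transfer RNA list numbered 2 without a low-count filter and 1 to 2 with each library left out. The cause of these shifts was not tested. No paired analysis was possible because the groups share no replicate number. With 3 libraries a group, the counts of Slfn1 and Slfn4 with β-SITO limit how precisely their decrease is known.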
